A study of Schizosaccharomyces pombe with 27 samples.

Results

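The genes cdc6 and cdm1 encode the catalytic subunit and the smallest subunit of DNA polymerase δ (Polδ) in the fission yeast Schizosaccharomyces pombe, and extra copies of both were placed elsewhere in the genome of the strains studied here. They were examined over the 300 bp bins that overlap each gene or lie within 10 kb on either side. This gave 154 of the 41908 bins, 84 for cdc6 and 70 for cdm1. By the ASM294v3 annotation, cdc6 (SPOM_SPBC336.04) lies on the top strand of chromosome II from 2743762 to 2748596, with 2 coding exons, and covers 17 bins. The gene cdm1 (SPOM_SPBC12D12.02C) lies on the bottom strand of chromosome II from 2305691 to 2306373 and covers 3 bins.

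Polδ extends primers and completes Okazaki fragments on the lagging strand, and Cdc6 is its subunit with polymerase and proofreading activity. The other subunits are Cdc1, Cdc27, which carries a binding motif for the sliding clamp PCNA, and Cdm1, which is not essential in fission yeast. Polymerase ε (Polε, catalytic subunit Cdc20) copies most of the leading strand, and polymerase α (Polα, catalytic subunit Pol1) makes the start of each new strand together with primase. Polymerase usage sequencing (Pu-Seq) counts the ribonucleotides left in DNA by a mutated polymerase in cells without rnh201, which encodes the catalytic subunit of RNase H2. The strand track of a bin is (f - r)/(f + r), where f and r are the counts on the top and the bottom strand. A negative Polδ or Polα track and a positive Polε track mark a region copied mainly by forks that move rightward, and the opposite signs mark forks that move leftward.

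Libraries were made in 2 experiments from 9 strains, which combine 3 genotypes with 3 reporter polymerases. WT strains carried the native genes only (strains 856 for Polδ, 655 for Polε and 1141 for Polα, with rnh201::kanR). In 2×Polδ strains (RZ57, RZ62 and RZ68, with rnh201::hygR) there was 1 extra cassette on chromosome I at 5230932, marked with ura4. The 4×Polδ strains (RZ112, RZ118 and RZ116, with rnh201::hygR) carried it and 2 further cassettes on chromosome I at 3325162, marked with kanR, and at 4734015, marked with natR. The reporter allele was cdc6 L591G in the Polδ strains, cdc20 M630F in the Polε strains and pol1 L850F in the Polα strains. All strains were h- leu1-32 ura4-D18, with ade6-704 except for an unspecified ade6 allele in 655, and all cultures were untreated and growing exponentially in YES. The WT strains therefore differed from the others in the marker at rnh201 as well as in the cassettes. Each cassette held the 4 genes in the order cdc1, cdc27, marker, cdc6 and cdm1 with surrounding sequence, and the cdc6 in it was the L591G allele in the Polδ strains and the unmutated gene in the Polε and Polα strains. The reference holds only the native copy, so reads from a cassette were counted at the native gene.

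The position that makes cdc6 the Polδ reporter is shown because every Polδ library depends on it. The top strand of chromosome II from 2745653 to 2745679 (ASM294v3), within the coding sequence of cdc6, reads as below in the reference, with the leucine codon that L591G replaces in capitals.

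cdc6, codons around the reporter position: gattttagttcaCTTtatccttcgatt

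The bin that holds this codon runs from 2745601 to 2745900. In it the count of the 4×Polδ strains was 3.44 times that of WT for Polδ, where the added cdc6 is mutated, and 3.64 and 3.49 times for Polε and Polα, where it is not. In the 2×Polδ strains the ratios in this bin were 1.86 for Polδ, 1.95 for Polε and 1.68 for Polα. The Polδ strain had the lowest of the 3 ratios in 4×Polδ but not in 2×Polδ, and these differences were not tested.

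Sequencing depth was 34475309 to 43905303 counts per library in experiment 1 and 16062711 to 24590546 in experiment 2, with a median bin of 761 to 960 counts and 379 to 549 counts. Over cdc6, each strand held 1298 to 55696 counts per library, and over cdm1 254 to 10220. To compare libraries, counts were divided by the median bin of their library, so that a level of 1 is the median bin. The WT library for Polε of experiment 2 had weaker tracks than that of experiment 1 at cdc6, at cdm1 and at the uncopied actin gene act1 (0.640 and 0.747), and values that rest on it are given beside the other experiment. Each genotype has 6 libraries, 2 for each polymerase. The study describes the experiments as independent biological repeats.

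First, total counts were compared to ask how the level over each gene follows the number of cassettes. At cdc6, the WT libraries of experiments 1 and 2 had levels of 1.05 and 0.967 with the Polδ reporter, 1.14 and 0.990 with that of Polε and 1.16 and 1.04 with that of Polα. The 2×Polδ libraries had levels of 2.08 and 1.94 with the Polδ reporter, 2.27 and 1.97 with that of Polε and 2.08 and 1.95 with that of Polα. In the 4×Polδ libraries the levels were 4.14 and 3.76 with the Polδ reporter, 4.37 and 3.79 with that of Polε and 4.20 and 3.91 with that of Polα. The 3 genotypes did not overlap, and experiment 1 was the higher one in every strain. The mean level was 1.06 ± 0.076 in WT cells, 2.05 ± 0.126 in 2×Polδ cells and 4.03 ± 0.246 in 4×Polδ cells (SD, n = 6 each).

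At cdm1, the WT libraries had levels of 0.994 and 0.977 with the Polδ reporter, 0.995 and 1.12 with that of Polε and 1.04 and 0.995 with that of Polα. The 2×Polδ libraries had 2.01 and 2.04 with the Polδ reporter, 2.09 and 2.03 with that of Polε and 1.95 and 1.75 with that of Polα. In the 4×Polδ libraries the levels were 3.99 and 3.80 with the Polδ reporter, 4.16 and 4.20 with that of Polε and 4.38 and 3.79 with that of Polα. Again the genotypes did not overlap. The lowest 2×Polδ library and the lowest 4×Polδ library were both Polα libraries of experiment 2. The mean level was 1.02 ± 0.052 in WT cells, 1.98 ± 0.122 in 2×Polδ cells and 4.05 ± 0.235 in 4×Polδ cells (SD, n = 6 each).

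**Figure D1:**
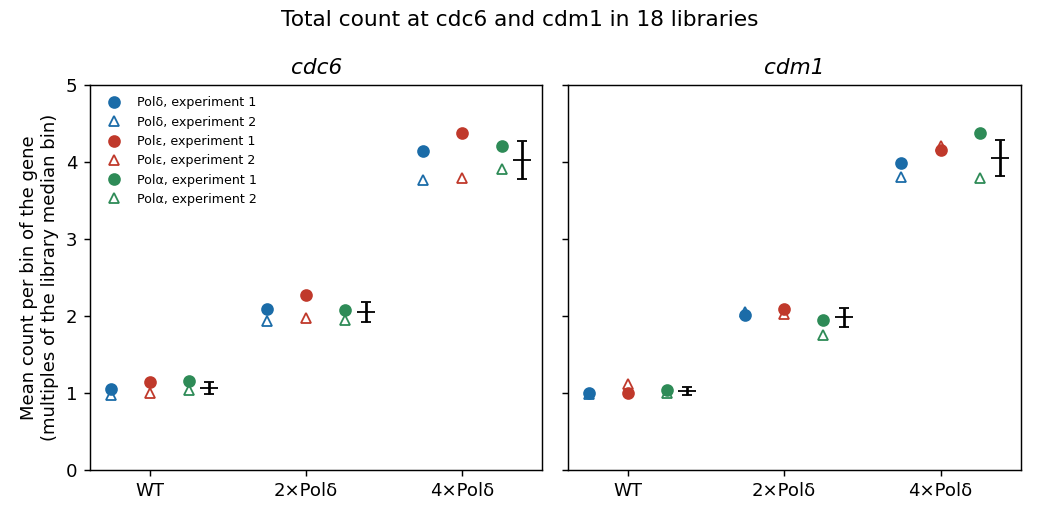
Level of cdc6 (left) and cdm1 (right) in the 18 libraries, as the mean count per bin of the gene in multiples of the library median bin (vertical axis), by genotype (horizontal axis). Points are single libraries, coloured by polymerase (filled, experiment 1; open, experiment 2), and bars show the mean and SD of 6 libraries; the WT libraries lie near 1, the 2×Polδ libraries between 1.75 and 2.27, and the 4×Polδ libraries between 3.76 and 4.38.

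Relative to the WT library of the same polymerase and experiment, cdc6 stood at 3.81 ± 0.109 in 4×Polδ (range 3.63 to 3.93) and 1.94 ± 0.088 in 2×Polδ (range 1.79 to 2.00). For cdm1 the ratio was 3.98 ± 0.188 in 4×Polδ (range 3.76 to 4.21) and 1.94 ± 0.147 in 2×Polδ (range 1.76 to 2.10; SD, n = 6 each). The uncopied act1 had ratios of 1.01 ± 0.056 in 4×Polδ and 1.01 ± 0.092 in 2×Polδ. In edgeR's quasi-likelihood test over 12573 genes, cdc6 rose in 4×Polδ against WT by 1.92 on the log2 scale (SE 0.051, adjusted p = 1.63e-13) and cdm1 by 1.97 (SE 0.050, adjusted p = 1.63e-13). In this comparison 0.151% of genes were called higher (adjusted p under 0.05). In 2×Polδ against WT, both rose by 0.95 (SE 0.050 and 0.049, adjusted p = 1.05e-08 for each in the same edgeR test), where 0.119% of genes were called higher. Between 4×Polδ and 2×Polδ, cdc6 differed by 0.97 (SE 0.050, adjusted p = 4.71e-09) and cdm1 by 1.03 (SE 0.049, adjusted p = 2.30e-09) in that edgeR test, which called 0.135% of genes higher.

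An exact permutation test of genotype within polymerase, on the log2 level of each gene, gave p = 0.00926 for all 6 of these differences, the smallest p that 216 regroupings allow (two-sided, Benjamini-Hochberg adjusted value 0.041 over 31 tests). With the experiments as blocks, sign flips over 6 pairs have a smallest p of 0.03125, and the adjusted value was 0.0881. The level of cdc6 over that of cdm1 differed between 4×Polδ and WT by -0.06 on the log2 scale (exact permutation p = 0.389), and between 2×Polδ and WT by 0.00 (exact permutation p = 0.991). A ratio to WT that depended on the reporter polymerase was not detected for either gene (genotype-by-polymerase terms in edgeR, unadjusted p = 0.857 for cdc6 and 0.494 for cdm1, adjusted p = 1.00 for both). In edgeR fits to the libraries of one polymerase alone, 2 for each genotype, cdc6 and cdm1 were each called higher in 4×Polδ against WT with every polymerase (log2 differences of 1.87 to 1.99, adjusted p = 0.00257 to 0.0078). In 2×Polδ against WT the differences in these fits were 0.88 to 0.99 for cdc6 and 0.87 to 1.04 for cdm1, which were not called without the experiments as blocks (edgeR adjusted p = 0.0824 to 0.379) and were all called with them (edgeR adjusted p = 5.25e-07 to 0.00746). Of 12573 genes, the fits of 4×Polδ against WT called 43, 10 and 13 higher with the Polδ, Polε and Polα libraries. In 2×Polδ against WT they called 0, 1 and 0 higher without the blocks and 16, 21 and 1731 with them. A call with the blocks in the Polα libraries of 2×Polδ was thus shared by many genes.

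Next, single bins were examined to see how far the added counts reach. In 4×Polδ against WT, 22 of the 84 bins around cdc6 were called higher and none lower, including all 17 bins of the gene (edgeR, adjusted p under 0.05), while 0.124% of all bins were called higher. Around cdm1, 9 of 70 bins were called, including all 3 bins of the gene. The called bins formed 1 unbroken run at each gene, from 2742901 to 2749500 at cdc6 and from 2304601 to 2307300 at cdm1. In 2×Polδ against WT, 19 bins at cdc6 and 3 at cdm1 were called higher, against 0.086% of all bins. Between 4×Polδ and 2×Polδ, the same numbers of bins were called, against 0.0764% of all bins. With the experiments as blocks, the fit called 22 bins at cdc6 and 7 at cdm1 in 2×Polδ against WT. It called 22 and 8 in 4×Polδ against 2×Polδ. In each of these blocked comparisons 50 of 41859 bins were called. No bin beyond these runs was called in either window by edgeR, where 25 bins at cdc6 and 9 at cdm1 had an unadjusted p under 0.05 in 4×Polδ against WT. DESeq2 also called the bin from 2742601, and edgeR without experiment 1 also called a bin from 2739901, both higher.

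Within cdc6, the ratio of a bin to WT ran from 3.52 to 4.85 in 4×Polδ, with a median of 3.83, and from 1.82 to 2.23 in 2×Polδ, with a median of 1.94. The highest ratio of both genotypes was in the bin that starts at 2747101. Within cdm1 the 3 bins had ratios of 3.82 to 4.23 in 4×Polδ and 1.88 to 2.00 in 2×Polδ. The ratio was therefore near that of the gene as a whole along each gene, apart from the bin at 2747101.

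**Figure D2:**
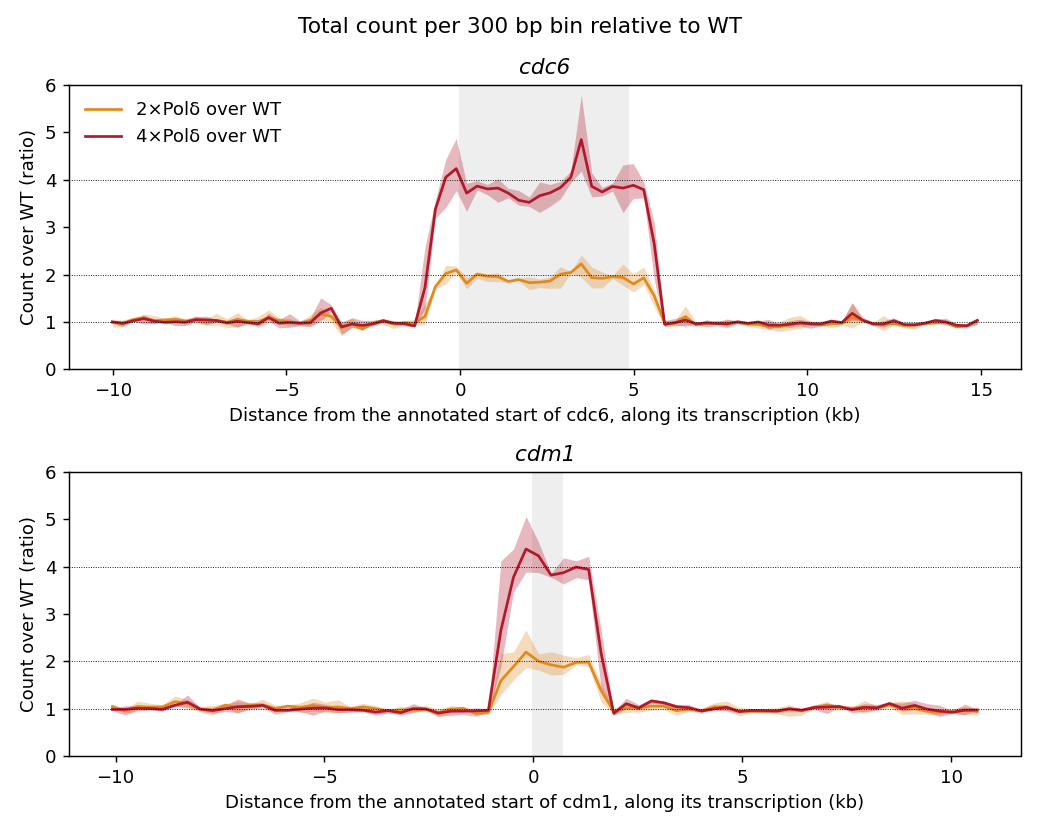
Total count per 300 bp bin over that of WT (vertical axis, ratio) around cdc6 (top) and cdm1 (bottom), against the distance in kb from the annotated start of the gene along its transcription (horizontal axis). Lines are means, shading is the range over the 3 polymerases, grey marks the gene and dotted lines mark ratios of 1, 2 and 4; the raised stretch spans 6900 bp at cdc6 and 2700 bp at cdm1, with ratios near 1 on either side.

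With 1 further bin on the left of cdc6, in which only the top strand was raised, the stretch of added counts covered 23 bins (6900 bp) at cdc6, from 2742601 to 2749500, and 9 bins (2700 bp) at cdm1. It reached 1161 bp left and 904 bp right of cdc6, and 1090 bp left and 927 bp right of cdm1. In the next bin outward the 4×Polδ to WT ratio was 0.919 and 0.951 at cdc6 and 0.905 and 0.968 at cdm1 (left and right). The copied fragments hold sequence beyond the genes, and so does the raised stretch.

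The outermost bins of the stretch had unequal ratios on the strands. Left of cdc6, in the bin from 2742601, the top-strand count of 4×Polδ was 2.99 ± 0.659 times WT and the bottom-strand count 1.06 ± 0.209 times (SD, n = 6). Right of cdc6, in the bin from 2749201, the ratios were 1.50 ± 0.371 on the top strand and 3.97 ± 0.427 on the bottom strand. At cdm1, the bin from 2304601 on the left had ratios of 2.58 ± 0.511 on the top strand and 1.20 ± 0.363 on the bottom strand. On its right, the bin from 2307001 had 1.49 ± 0.318 on the top strand and 4.62 ± 0.274 on the bottom strand. Thus the top strand was the more raised one at both left ends, in 6 of 6 pairs of libraries each, and the bottom strand at both right ends, in 6 of 6 pairs each. The same order held in 2×Polδ in 5 of 6 pairs at each left end and in 6 of 6 at each right end. In 4×Polδ it held for each reporter polymerase, although Polε counts lie mostly on the other strand.

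**Figure D3:**
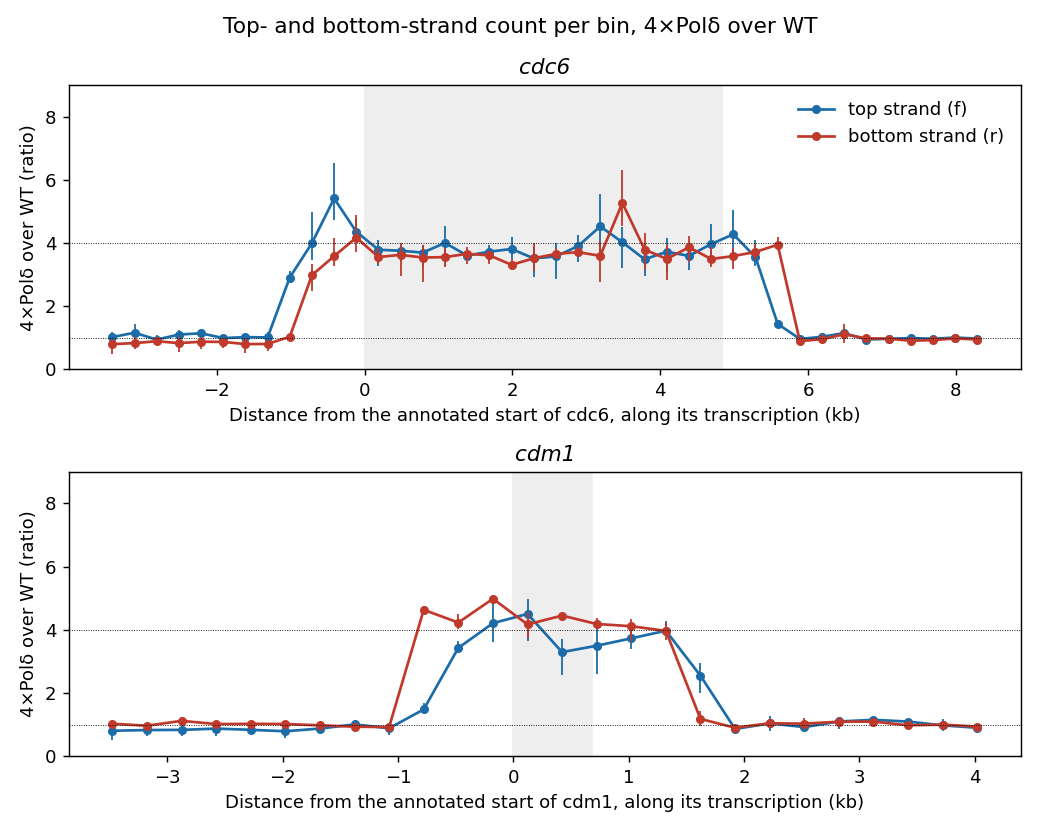
Count of 4×Polδ over WT per 300 bp bin (vertical axis, ratio) on the top and the bottom strand near cdc6 (top) and cdm1 (bottom), against the distance in kb from the annotated start of the gene along its transcription (horizontal axis). Points are means and vertical lines the range over the 3 polymerases, and grey marks the gene; because cdm1 is transcribed leftward its axis runs the other way, and in both panels the coding strand is the first to rise on the upstream side, while the template strand is the last to fall on the downstream side.

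A change of the strand ratio log2(f/r) that has the same sign for all 3 polymerases was tested by leaving the sign of the Polε term as it is, a setting chosen after seeing the data. In 4×Polδ against WT this edgeR fit called 3 of 41167 bins (0.00729%), and all 3 were such end bins. The strand ratio fell by 1.44 on the log2 scale in the bin from 2749201 (SE 0.163, adjusted p = 0.0037) and rose by 1.50 in that from 2742601 (SE 0.205, adjusted p = 0.0164), both at cdc6. In the bin from 2307001 at cdm1 it fell by 1.67 (SE 0.200, edgeR adjusted p = 0.0039). At the left end of cdm1 the value was 1.12 (SE 0.238, edgeR adjusted p = 1.00, and 0.0296 with the experiments as blocks). In 2×Polδ against WT none was called in this edgeR fit, with a lowest adjusted p of 0.602, and 4 bins of the 2 windows had an unadjusted p under 0.05.

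Genes that share bins with the raised stretches showed all or part of the same rise. At cdc6, the ratio of 4×Polδ to WT was 3.80 ± 0.303 for hen1, which encodes a small RNA methyltransferase and lies within cdc6 on the other strand. It was 2.81 ± 0.110 for rnh1, which encodes RNase H1, and 1.64 ± 0.135 for efc25, which encodes a Ras guanine nucleotide exchange factor (SD, n = 6 each). At cdm1, sad1, which encodes the SUN protein of the spindle pole body and overlaps cdm1, had a ratio of 2.82 ± 0.078. The non-coding RNA gene SPOM_SPNCRNA.5589, which covers 2 bins, had one of 4.06 ± 1.378 (SD, n = 6 each). In 2×Polδ these ratios were 1.93 ± 0.178 for hen1, 1.58 ± 0.132 for rnh1, 1.19 ± 0.054 for efc25, 1.59 ± 0.071 for sad1 and 2.03 ± 0.803 for SPOM_SPNCRNA.5589. Bins are shared between overlapping genes, so these values are no measure of the copy number of the whole neighbour.

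The strands were then examined apart, beginning with the direction of replication in WT. At cdc6, the WT Polδ track was -0.653 and -0.619 in experiments 1 and 2, the Polε track 0.730 and 0.552, and the Polα track -0.539 and -0.555. At cdm1, the WT Polδ track was 0.676 and 0.555, the Polε track -0.693 and -0.513, and the Polα track 0.588 and 0.551. By all 3 polymerases, cdc6 was copied mainly by rightward forks and cdm1 mainly by leftward forks. Since cdc6 is transcribed rightward and cdm1 leftward, forks moved mainly in the direction of transcription at both genes.

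These signs held over most of each window. Around cdc6, 65 of 84 bins had a negative Polδ track in WT, 66 a positive Polε track and 67 a negative Polα track. In 9 bins the tracks of all 3 polymerases had the opposite signs. All 9 lay left of the gene, the nearest at 5.36 kb. Around cdm1, 68 of 70 bins had a positive Polδ track, 69 a negative Polε track and 69 a positive Polα track, and no bin had the opposite signs for all 3. The window of cdc6 therefore held a change of fork direction on its left, and that of cdm1 none.

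With added copies, both strands rose at each gene and their order was kept. At cdc6 in the Polδ strains, the top-strand level in experiments 1 and 2 was 0.182 and 0.184 in WT cells, 0.356 and 0.347 in 2×Polδ cells and 0.767 and 0.703 in 4×Polδ cells. The bottom-strand level was 0.870 and 0.783 in WT cells, 1.73 and 1.59 in 2×Polδ cells and 3.37 and 3.06 in 4×Polδ cells. The weaker strand of 4×Polδ was thus still below the stronger strand of WT in experiment 1 and in experiment 2.

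In the Polε strains the top strand of cdc6 was the stronger one, with levels of 0.982 and 0.768 in WT cells, 1.96 and 1.70 in 2×Polδ cells and 3.74 and 3.19 in 4×Polδ cells. The bottom-strand level was 0.153 and 0.222 in WT cells, 0.308 and 0.278 in 2×Polδ cells and 0.635 and 0.605 in 4×Polδ cells. The bottom strand of WT in experiment 2 stood above that of experiment 1, and the ratios to it were 2.73 in 4×Polδ and 1.26 in 2×Polδ, against 4.14 and 2.01 in experiment 1. In the Polα strains the top-strand level was 0.267 and 0.232 in WT cells, 0.331 and 0.347 in 2×Polδ cells and 0.891 and 0.770 in 4×Polδ cells. The bottom-strand level was 0.891 and 0.809 in WT cells, 1.75 and 1.60 in 2×Polδ cells and 3.31 and 3.14 in 4×Polδ cells. The top strand of the Polα strains rose less than the bottom strand, with ratios to WT of 1.24 and 1.50 in 2×Polδ cells and 3.33 and 3.32 in 4×Polδ cells.

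At cdm1 the strands were reversed. In the Polδ strains the top-strand level was 0.834 and 0.760 in WT cells, 1.64 and 1.59 in 2×Polδ cells and 3.25 and 2.87 in 4×Polδ cells. The bottom-strand level was 0.161 and 0.217 in WT cells, 0.364 and 0.456 in 2×Polδ cells and 0.745 and 0.933 in 4×Polδ cells. Top-strand counts were the higher ones in each of these libraries. In the Polε strains the top-strand level was 0.153 and 0.272 in WT cells, 0.304 and 0.307 in 2×Polδ cells and 0.647 and 0.650 in 4×Polδ cells. The bottom-strand level was 0.842 and 0.845 in WT cells, 1.79 and 1.72 in 2×Polδ cells and 3.51 and 3.55 in 4×Polδ cells. Here too the weaker strand of the WT library of experiment 2 stood above that of experiment 1, with ratios to it of 2.39 in 4×Polδ and 1.13 in 2×Polδ. In the Polα strains the top-strand level was 0.827 and 0.771 in WT cells, 1.62 and 1.31 in 2×Polδ cells and 3.55 and 2.82 in 4×Polδ cells. The bottom-strand level was 0.214 and 0.223 in WT cells, 0.333 and 0.439 in 2×Polδ cells and 0.833 and 0.971 in 4×Polδ cells.

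Tracks of all 18 libraries kept the sign of WT at both genes. At cdc6 the Polδ track was -0.659 and -0.641 in 2×Polδ cells and -0.630 and -0.626 in 4×Polδ cells. The Polε track was 0.729 and 0.718 in 2×Polδ cells and 0.710 and 0.681 in 4×Polδ cells, and the Polα track -0.681 and -0.644 in 2×Polδ cells and -0.576 and -0.606 in 4×Polδ cells. At this gene both Polα tracks of 2×Polδ were more negative than those of the other genotypes, and the WT Polε track of experiment 2 was the smallest Polε track. At cdm1 the Polδ track was 0.637 and 0.554 in 2×Polδ cells and 0.627 and 0.509 in 4×Polδ cells. The Polε track was -0.709 and -0.697 in 2×Polδ cells and -0.689 and -0.691 in 4×Polδ cells, and the Polα track 0.659 and 0.498 in 2×Polδ cells and 0.620 and 0.488 in 4×Polδ cells.

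**Figure D4:**
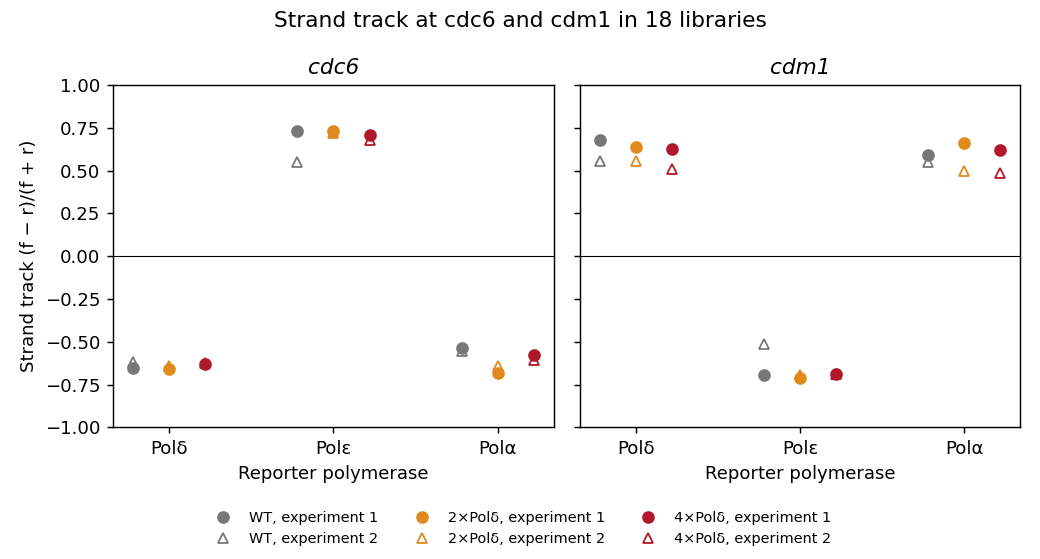
Strand track (f - r)/(f + r) at cdc6 (left) and cdm1 (right) in the 18 libraries (vertical axis, no unit), by reporter polymerase (horizontal axis). Points are single libraries, coloured by genotype (filled, experiment 1; open, experiment 2); signs are opposite between the genes and between Polε and the other polymerases, and no library with added copies changes sign.

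To compare genotypes over all polymerases, the sign of Polε was turned. The turned track of cdc6 averaged -0.638 in 4×Polδ and -0.608 in WT, a difference of -0.03 (exact permutation p = 0.370, n = 6 each). For 2×Polδ it averaged -0.679, a difference from WT of -0.07 (exact permutation p = 0.0648, adjusted 0.223). Between 4×Polδ and 2×Polδ it differed by 0.04, in the same direction in 6 of 6 pairs (exact permutation p = 0.00926, adjusted 0.041, and 0.0881 with the experiments as blocks). At cdm1 the turned track averaged 0.596 in WT cells, 0.626 in 2×Polδ cells and 0.604 in 4×Polδ cells. None of its 3 differences passed the test (exact permutation, adjusted values of 0.761 and above). With the experiments as blocks, the track of cdm1 was lower in 4×Polδ than in 2×Polδ in 6 of 6 pairs, by a difference of -0.02 (exact sign-flip permutation p = 0.03125, the smallest possible, adjusted 0.0881).

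In edgeR's test of the turned strand ratio over 12553 genes, neither member was called. The change of cdc6 was -0.13 in 4×Polδ against WT (SE 0.118, adjusted p = 1.00), where 0.94% of genes were called, and -0.33 in 2×Polδ against WT (SE 0.118, adjusted p = 0.231), where 0.295% were called. Between 4×Polδ and 2×Polδ it was 0.20 (SE 0.117, adjusted p = 0.718 in edgeR), where 0.462% were called. For cdm1 the changes were 0.04 in 4×Polδ against WT (SE 0.172, adjusted p = 1.00), 0.14 in 2×Polδ against WT (SE 0.173, adjusted p = 0.686) and -0.10 between 4×Polδ and 2×Polδ (SE 0.168, adjusted p = 0.883) in the same edgeR test. Of these 6 values, only cdc6 in 2×Polδ against WT had an unadjusted p under 0.05. Per bin, none was called in either window, while 0.168% of all bins were called in 4×Polδ against WT, 0.034% in 2×Polδ against WT and 0.158% in 4×Polδ against 2×Polδ (edgeR). In the cdc6 window 0, 7 and 1 bins had an unadjusted p under 0.05 in these comparisons, in the cdm1 window 2, 4 and 0, and DESeq2 called none.

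Within single polymerases, the largest change of strand ratio at either gene was that of cdc6 in the Polα strains, -0.53 in 2×Polδ against WT (SE 0.146, adjusted p = 0.125 in edgeR), in a fit that called 0.302% of genes. With the experiments as blocks it was -0.53 (SE 0.124) and was called (adjusted p = 0.0134 in edgeR), in a fit that called 28.0% of genes. The corresponding value of 4×Polδ against WT in the Polα strains was -0.19 (SE 0.146, edgeR adjusted p = 1.00). A strand change that differed between polymerases was not detected (edgeR, unadjusted p = 0.590 for cdc6 and 0.640 for cdm1).

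The strand of the added counts was then taken by subtracting the level of the WT library of the same polymerase and experiment, strand by strand. At cdc6, the counts added in 4×Polδ had tracks of -0.621 and -0.629 with the Polδ reporter, 0.703 and 0.727 with that of Polε and -0.590 and -0.624 with that of Polα. In 2×Polδ they had tracks of -0.664 in both experiments with the Polδ reporter, 0.728 and 0.885 with that of Polε and -0.861 and -0.745 with that of Polα. The added counts of cdc6 thus lay mainly on the same strand as those of the native gene in all 12 pairs. At cdm1, the tracks of the added counts in 4×Polδ were 0.610 and 0.493 with the Polδ reporter, -0.688 and -0.755 with that of Polε and 0.630 and 0.466 with that of Polα. In 2×Polδ they were 0.599 and 0.553 with the Polδ reporter, -0.724 and -0.922 with that of Polε and 0.740 and 0.429 with that of Polα. All 12 again had the sign of the native gene. The -0.922 of cdm1 and the 0.885 of cdc6 both come from the subtraction of the WT Polε library of experiment 2.

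The strain list gives the order of the 4 genes in the cassette but not their directions. At their native places cdc6 and cdm1 are transcribed in opposite directions. The added counts were therefore also expressed in the direction of the gene, as coding minus template strand over their sum with Polε turned. In this form a negative value means that forks moved mainly with transcription. For cdc6 the native gene in WT had -0.608 ± 0.074, the counts added in 2×Polδ -0.758 ± 0.095 and those added in 4×Polδ -0.649 ± 0.053 (SD, n = 6 each). For cdm1 the values were -0.596 ± 0.073 for the native gene in WT, -0.661 ± 0.172 for 2×Polδ and -0.607 ± 0.111 for 4×Polδ. So the mean of the added counts had the same sign relative to the gene for both. The difference of cdc6 minus cdm1 was -0.042 ± 0.085 in 4×Polδ (exact sign-flip permutation p = 0.406, n = 6 pairs) and -0.097 ± 0.124 in 2×Polδ (exact sign-flip permutation p = 0.0938, n = 6 pairs), where 64 sign flips allow no p below 0.03125. This comparison depended on the bins taken. Over all raised bins the difference in 4×Polδ was -0.0578, with one sign in 6 of 6 pairs (exact sign-flip permutation p = 0.03125), and in 2×Polδ -0.100 (exact sign-flip permutation p = 0.0625). The raised bins reach beyond the genes and include end bins, where the strands rose unequally, and those weigh more in the shorter stretch of cdm1. Over bins that lie whole inside the genes it was -0.0193 in 4×Polδ (exact sign-flip permutation p = 0.75) and -0.0204 in 2×Polδ (exact sign-flip permutation p = 0.812). At cdm1 only the bin from 2305801 lies whole inside the gene, so that side of the comparison rests on this bin alone. The counts that 4×Polδ had beyond 2×Polδ gave -0.597 for cdc6 and -0.582 for cdm1.

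The other copied genes differed from this. On average their native copies were copied mainly against the direction of transcription. The values in WT were 0.612 ± 0.143 for cdc1 and 0.222 ± 0.133 for cdc27 (SD, n = 6 each). At cdc27 the WT Polε libraries of experiments 1 and 2 had -0.018 and 0.181, so the direction was not shared by every library. Counts added at cdc1 had -0.439 ± 0.110 in 4×Polδ and -0.258 ± 0.225 in 2×Polδ, and those added at cdc27 -0.766 ± 0.059 and -0.836 ± 0.055 (SD, n = 6 each). The edgeR test of the turned strand ratio called both genes in 4×Polδ against WT, with a change of -2.54 for cdc1 (adjusted p = 2.02e-08) and 2.22 for cdc27 (adjusted p = 1.15e-08). In 2×Polδ against WT the changes were -1.69 for cdc1 and 1.57 for cdc27, also called. The added counts of all 4 genes had negative means in the direction of the gene, and only the native copies of cdc6 and cdm1 had negative means as well.

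**Figure D5:**
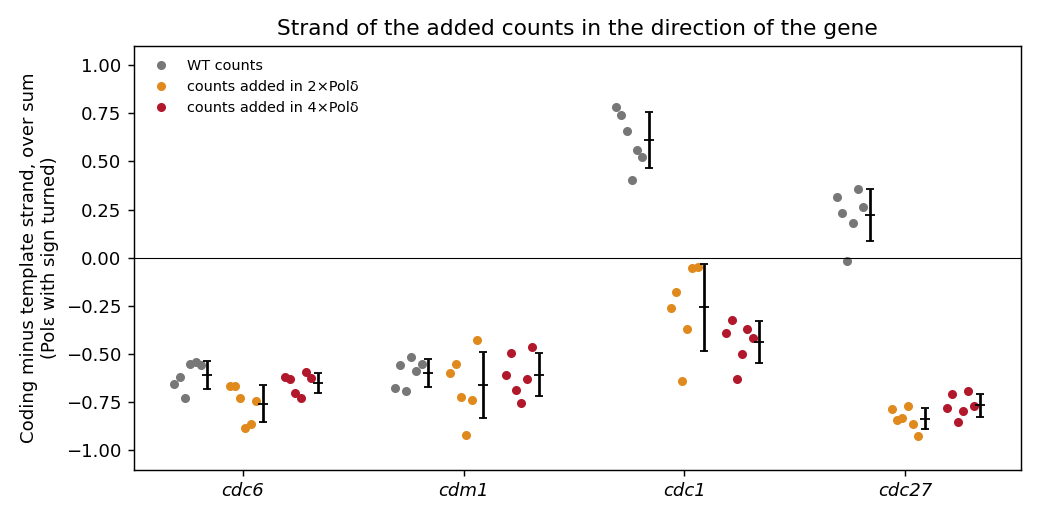
Coding minus template strand over their sum, with the sign of Polε turned (vertical axis, no unit), for the counts of WT and for those added in 2×Polδ and in 4×Polδ, at cdc6, cdm1, cdc1 and cdc27 (horizontal axis). Points are single libraries or pairs of libraries, and bars show the mean and SD of 6; the added counts are below 0 for every gene, while the WT counts are below 0 for cdc6 and cdm1 and have positive means for cdc1 and cdc27.

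Tracks beside the integration sites were set next to these values as a description. In WT, with the sign of Polε turned, the track over 10 kb was 0.642 ± 0.059 left and -0.345 ± 0.047 right of chromosome I at 5230932. At 3325162 it was 0.152 ± 0.072 left and -0.703 ± 0.066 right, and at 4734015 it was 0.611 ± 0.057 left and -0.096 ± 0.052 right (SD, n = 6 each). The WT means thus had the sign of mainly leftward forks left of each site and of mainly rightward forks right of it. Left of 3325162 and right of 4734015 this direction was weak, with the weakest single libraries at 0.050 and -0.031. In 4×Polδ, the tracks were 0.436 left and -0.401 right of 5230932, 0.231 left and -0.570 right of 3325162, and 0.444 left and -0.158 right of 4734015. In 2×Polδ, with a cassette at 5230932 only, the left and right tracks were 0.460 and -0.419 there. They were 0.182 and -0.733 at 3325162, and 0.641 and -0.082 at 4734015. Signs on both sides of all 3 sites were those of WT. Sizes were not all kept, since in 4×Polδ the stronger side of each site was weaker than in WT and the weaker side stronger. These differences were not tested.

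Outside the copied stretches, the flanks of cdc6 and cdm1 were compared over 29 or 30 bins per side. The ratio of their total count to WT was between 0.90 and 1.11 in every library of 2×Polδ and 4×Polδ. Left of cdc6 the turned track averaged -0.240 in WT cells, -0.220 in 2×Polδ cells and -0.249 in 4×Polδ cells. Right of cdc6 it averaged -0.307 in WT cells, -0.362 in 2×Polδ cells and -0.305 in 4×Polδ cells. Left of cdm1 it averaged 0.399 in WT cells, 0.445 in 2×Polδ cells and 0.429 in 4×Polδ cells, so that both other genotypes were above WT there. Right of cdm1 it averaged 0.681 in WT cells, 0.718 in 2×Polδ cells and 0.701 in 4×Polδ cells. These means hide differences between polymerases in 2×Polδ. The Polα libraries differed from WT by 0.096 and 0.111 left of cdc6 and by -0.182 and -0.086 right of it. The Polδ libraries differed there by -0.013 to 0.020 and -0.021 to -0.014, and the Polε libraries by -0.060 to -0.029 and -0.073 to 0.046. The polymerases were not tested apart in the flanks. None of the 16 comparisons of the flanks with WT passed the adjusted threshold. The lowest adjusted value, 0.0718, was that of the left flank of cdm1 in 2×Polδ, whose track differed from WT by 0.05 (exact permutation p = 0.0185), in the same direction in 6 of 6 pairs. With the experiments as blocks, that track in 2×Polδ and in 4×Polδ, and the right total of cdc6 in 4×Polδ, which was lower by a difference of -0.03 on the log2 scale, had one sign in 6 of 6 pairs (exact sign-flip permutation p = 0.03125, adjusted 0.0881).

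Among 29 other genes for Polδ, Polε, Polα-primase, the clamp and its loader, Okazaki fragment processing and the replicative helicase, 2 were called in total counts in every comparison, cdc1 and cdc27, both higher. The other 27 had changes of -0.10 to 0.13 on the log2 scale in 4×Polδ against WT, with a median of -0.02, beside a median of 0.00 over all genes. The genes whose levels followed cdc6 most closely over the 18 libraries, outside its own window, were cdm1 (r = 0.994 on log2 levels set relative to WT), sad1 (r = 0.993) and SPOM_SPNCRNA.5004 (r = 0.983). For cdm1 they were cdc6 (r = 0.994), hen1 (r = 0.991) and rnh1 (r = 0.984). These correlations describe 18 libraries that share 3 genotypes, and hen1, rnh1 and sad1 share bins with the members.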

How the data were processed

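Ribonucleotide positions were counted in 27 samples, or 18 libraries after the sequencing runs belonging to experiment 1 were added up. The authors mapped the reads with Bowtie2 to ASM294v2, per the submitters' processing notes, and deposited whole-number counts per strand and 300 bp bin with no normalization. Which Bowtie2 version was used, or how multiply mapping reads were treated, is not given in the sources used here, and bins of a copied gene hold reads of every copy. One set of libraries was made with a modified GLOE-Seq protocol, and which experiment it is was not given. Runs of a library differed by little more than counting noise (chi-square per degree of freedom 1.10 to 1.11), against 18.5 to 40.5 between experiments.

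Gene positions came from ASM294v3, whose chromosome lengths match the bins. A gene's count was the sum over its overlapping bins. Totals (polymerase plus genotype) and strand ratios (library, strand by polymerase and strand by genotype, with the Polε term turned) were tested by the quasi-likelihood test of edgeR 4.0.16 (R 4.3.3), TMM scaling, at least 10 counts in every library for bins, and Benjamini-Hochberg adjustment over all genes or bins at 0.05. Levels and tracks per gene and flank (10 kb, without the 1200 bp next to the gene) were compared by two-sided exact permutation of genotype within polymerase. Other values came from Python 3.11.15 (numpy 2.4.6, pandas 2.3.3). The fits were tested on simulated counts drawn without a difference between experiments. Such counts cannot show how the fits without blocks behave under the spread between experiments seen here. Counting error is small beside the spread between experiments. Libraries of one polymerase and one experiment deviated together from the means of their strains in each of 9 pairs of strains (r between 0.622 and 0.896 for strand ratios, 0.811 and 0.953 for totals), so the experiments pair the libraries and blocked fits were run beside the others.

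Alternatives were the block, DESeq2 1.42.0, other scaling, count minimums of 0 and 50, whole bins only, 5 kb flanks, the first runs only, and leaving out an experiment or a polymerase. The fit with the Polε term not turned, its edge bins, and the fits of totals to one polymerase were added after seeing the data. Named are both members, genes in their raised bins, called genes of a list of 29 replication genes with cdc1 and cdc27, act1, and the 3 genes most correlated with each member (pseudocount 0.5). The members and lists were chosen with earlier results of these data known.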

Additional observations from a re-analysis of the deposited data

Results flagged for a closer look

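Of 48 groups of 6 libraries examined for a library far from the others, which chance alone marks in about 1 of 20, 1 was marked. In the left flank of cdc6 in 4×Polδ, the turned track of the Polε library of experiment 1 was -0.211, while the other 5 libraries lay between -0.269 and -0.247. The gap made up 0.63 of the range of the 6 values, just above Dixon's critical value.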

How the results depend on the processing

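Total counts of cdc6 and cdm1 per gene were called higher in all 3 comparisons under every alternative of the fits over 2 or 3 polymerases, with values of 1.89 to 1.93 (4×Polδ against WT), 0.94 to 0.95 (2×Polδ against WT) and 0.95 to 0.99 (4×Polδ against 2×Polδ) at cdc6 when an experiment was left out, and 1.89 to 2.05, 0.89 to 1.00 and 1.00 to 1.05 at cdm1. The number of called bins at cdc6 in 2×Polδ against WT was 6, 9 and 9 without Polδ, Polε or Polα libraries, and in 4×Polδ against 2×Polδ 6, 9 and 3. Over all bins, in either direction, these fits called 20 of 41864, 16 of 41873 and 14 of 41861 in 2×Polδ against WT. In 4×Polδ against 2×Polδ they called 10, 11 and 4. At cdm1 in 2×Polδ against WT the number of called bins was 7 with the replicate block, 5 with DESeq2, 7 without either experiment and 1 without Polδ libraries, and in 4×Polδ against 2×Polδ 8, 8, 7 and, without Polα libraries, 1. The block called 50 of 41859 bins in 2×Polδ against WT, DESeq2 52 of 31309, and the fits without experiments 1 and 2 called 45 and 49. In 4×Polδ against 2×Polδ these numbers were 50, 55 of 5340, 37 and 40. No strand ratio of a gene was called under any alternative in the fits over all polymerases, but uncalled ones changed sign in 4×Polδ against WT between the fits without experiment 1 (cdc6 -0.289, cdm1 0.135) and without experiment 2 (0.0258 and -0.0404) and without Polε libraries at cdm1 (-0.139, and -0.0221 in 2×Polδ against WT). In the edgeR fits to one polymerase, the block made the strand ratio of cdc6 a call in the Polα strains of 2×Polδ (-0.533). There it also made calls of the totals in 2×Polδ against WT, with Polδ, Polε and Polα reporters 0.9947, 0.9922 and 0.8823 at cdc6 and 1.038, 0.965 and 0.8748 at cdm1, and it changed no other call of cdc6 or cdm1 in the edgeR fits per gene. In 4×Polδ against WT, 1 strand bin was called in each window without Polε libraries, 2 at cdc6 and 1 at cdm1 with the Polε term not turned, and 2 in each with that and the replicate block. Over all bins these fits called 19 of 41426, 3 of 41167 and 4 of 41167. Taken over all raised bins, end bins included, the added counts of cdc6 minus cdm1 gave -0.0578 in 4×Polδ (exact sign-flip permutation p = 0.03125, the smallest possible). In the permutation tests the blocked differences were 1.93, 0.96 and 0.98 for cdc6, 1.99, 0.95 and 1.04 for cdm1 and, in 4×Polδ against 2×Polδ, 0.0405 for the track of cdc6 and -0.0221 for that of cdm1, with adjusted values of 0.0881. A single experiment allows no p below 0.25 there, and gave 1.93 to 1.94, 0.94 to 0.97 and 0.97 to 0.98 for cdc6, 1.93 to 2.05, 0.91 to 1.00 and 1.02 to 1.05 for cdm1, and 0.0298 to 0.0512 for the track of cdc6. Signs of differences that did not pass turned with the experiment left out for the tracks in 4×Polδ against WT (-0.0627 to 0.0021 at cdc6, -0.0073 to 0.0226 at cdm1) and for cdc6 over cdm1 (-0.120 to 0.0016 in 4×Polδ, -0.0542 to 0.0547 in 2×Polδ). In the flanks they turned for the left total of cdc6 in 4×Polδ (-0.0146 with library totals as scale, -0.0030 over 5 kb, -0.0058 to 0.0179 with an experiment left out) and in 2×Polδ (-0.0152, -0.0317 and -0.0275 to 0.0452), its left track (-0.0247 to 0.0065 in 4×Polδ with an experiment left out, -0.0077 in 2×Polδ over 5 kb) and its right track (-0.0113 to 0.0152 in 4×Polδ with an experiment left out). At cdm1 they turned for the left total (-0.0061 in 4×Polδ with library totals, -0.0394 to 0.0190 in 2×Polδ with an experiment left out), the right total (-0.0151 in 2×Polδ over 5 kb) and the right track (-0.0132 to 0.0539 in 4×Polδ with an experiment left out). The cause of these changes was not tested.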
